A study of Mus musculus with 5 samples.

Results

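The genes described here are 571 genes of mouse chromosome 6 measured in embryonic stem (ES) cells, taken in the order of their start positions. They were chosen from a table of 24016 genes, of which 1269 lie on chromosome 6, by a mean deposited value of at least 20 over the 5 libraries. Under that level lay 682 genes of the chromosome, and 16 more that reached it were left out by name (Nanog, Dppa3 and others named singly, and genes for ribosomal proteins, small nucleolar RNAs and subunits of the respiratory chain). The measured level thus chose the members, and nothing is read from their being above it. The genes just below the level were Gpr162 (19.5), Hoxa7 (19.5) and Dfna5 (19.8), and the members just above it were Herc6 (20.2), Lincpint (21.2) and 2610306M01Rik (21.3). Of the 571 members 546 are labelled protein-coding, 290 are read from the plus strand and 281 from the minus strand, and the first begins at 3.32 Mb and the last ends at 149.5 Mb of the mm9 build. The same level and the same names chose 11194 genes on the other autosomes, which serve as the reference for composition.

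The libraries came from ES cell lines of 4 strains: 1 line of C57BL/6 (B6), 2 of NOD (NOD1 and NOD5), 1 of NZB and 1 of v6.5, whose parents were of the C57BL/6 strain and 129S4/SvJae. NOD and NZB are inbred mice that develop autoimmune disease on their own, and C57BL/6 is the usual non-autoimmune comparison. All lines were described as grown without feeder cells in 2i medium, which holds inhibitors of MEK and GSK3, and the labels name no transgene or further treatment. RNA was selected by its poly-A tail, sequenced as single reads with strand kept, and counted over RefSeq exons. Each group is a single line, except NOD, so a strain and its line cannot be told apart. Among the input directories recorded in the table, 2 carry the name B6 while v6.5 has no directory, and "v6.5" stands throughout for the library labelled v6.5. The directory of NOD5 joins the numbers 5 and 6, and whether this library holds 1 line is not known. No label says that the lines were cultured separately or together, so any p-value reflects only how far these libraries vary, which may be technical.

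Each autosome is present in a pair of copies in a normal mouse cell, and the RNA of its genes rises and falls roughly with the number of copies, so the median of many neighbouring genes can be followed as a dosage along the chromosome. Mouse ES cells in culture can gain or lose whole chromosomes, and gains of chromosome 8 are the best known. Chromosome 6 carries the HOXA cluster of developmental regulators, a cluster of Kruppel-type zinc finger genes near the Polycomb methyltransferase gene Ezh2, the glucose transporter gene Slc2a3 beside other genes expressed in pluripotent cells, genes of glycolysis such as Tpi1 and Hk2, and the natural killer receptor complex, which stem cells hardly use.

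The promoters of 4 members are printed because these genes carry the main patterns described later, and they were chosen after their values were seen. Serbp1 and Wnk1 were among the most highly read members that stood higher in B6 and v6.5, Tpi1 passed the test in all 3 comparisons of NOD, and Aass was among the members that moved in the opposite direction. Each sequence runs from 250 bases before to 50 bases after the annotated start, 5′ to 3′ on the gene's strand, from RefSeq on GRCm38.p6, with every CG dinucleotide in capitals.
Serbp1 (chr6:67266729-67267028, plus strand): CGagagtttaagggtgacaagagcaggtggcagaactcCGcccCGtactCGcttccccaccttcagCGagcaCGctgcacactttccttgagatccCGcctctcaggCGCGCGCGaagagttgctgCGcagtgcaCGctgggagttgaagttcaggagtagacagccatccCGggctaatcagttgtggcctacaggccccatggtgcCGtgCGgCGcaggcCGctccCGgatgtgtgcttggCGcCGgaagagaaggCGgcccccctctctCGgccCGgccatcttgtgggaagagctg
Wnk1 (chr6:120038606-120038905, minus strand): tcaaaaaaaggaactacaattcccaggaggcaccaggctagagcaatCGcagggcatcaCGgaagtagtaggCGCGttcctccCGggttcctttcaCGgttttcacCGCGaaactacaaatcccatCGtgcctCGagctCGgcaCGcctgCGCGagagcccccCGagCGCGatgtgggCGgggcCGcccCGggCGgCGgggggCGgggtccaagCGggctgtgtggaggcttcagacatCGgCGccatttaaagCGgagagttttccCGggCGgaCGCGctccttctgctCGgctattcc
Tpi1 (chr6:124814109-124814408, minus strand): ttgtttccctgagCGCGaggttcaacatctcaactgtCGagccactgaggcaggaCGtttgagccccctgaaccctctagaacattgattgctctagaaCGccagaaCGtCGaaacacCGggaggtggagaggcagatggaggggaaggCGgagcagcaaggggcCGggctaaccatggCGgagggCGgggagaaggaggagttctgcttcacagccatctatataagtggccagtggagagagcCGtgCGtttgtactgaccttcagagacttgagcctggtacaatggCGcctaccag
Aass (chr6:23132937-23133236, minus strand): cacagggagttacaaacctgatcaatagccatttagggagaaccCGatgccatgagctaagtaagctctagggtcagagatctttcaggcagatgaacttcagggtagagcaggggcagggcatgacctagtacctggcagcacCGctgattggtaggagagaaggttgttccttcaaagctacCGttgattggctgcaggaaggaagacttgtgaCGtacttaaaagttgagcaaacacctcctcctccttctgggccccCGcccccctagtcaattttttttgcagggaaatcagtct
The 300 bases held 24 CG dinucleotides at Serbp1, 32 at Wnk1, 15 at Tpi1 and 5 at Aass. CG-rich promoters are typical of genes used in most cells. A promoter was found by gene identifier for 481 members, with a median of 20 CG dinucleotides, and 70.5% of them held at least 15. Promoters of 8860 genes of the other autosomes at the same level had a median of 22, and 73.6% of them held at least 15, whereas 35.2% of all 27025 genes with a promoter in the RefSeq table did. The letters TATAAA, searched on both strands, stood in 7.90% of the members' promoters, in 6.72% of those of the other autosomes at the same level and in 14.2% of all. The members' promoters were thus close to those of other expressed genes by both counts.

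The recovered reads numbered between 7713133 (NOD1) and 21387796 (NOD5) a library, and the ribosomal RNA gene Rn45s took between 1.95% (NOD5) and 41.4% (B6) of them. The members took 3.68% of the reads in B6, 3.65% in NOD1, 4.68% in NOD5, 5.24% in NZB and 6.31% in v6.5, so raw shares were not comparable. Values are therefore given as normalised read counts, which are the deposited values divided by a TMM factor, a scaling that equalises the bulk of the genes. The factors ran from 0.642 in B6 to 1.23 in NZB. All 8 pluripotency markers, Pou5f1 and Sox2 among them, were at a normalised 20 or more in all 5 libraries. Their summed level ran from 23683 in NOD1 to 47690 in NOD5. The summed level of 11 fibroblast markers was 60911 in B6, 37636 in NZB, 23948 in v6.5, 16716 in NOD1 and 15744 in NOD5, with 5 to 9 of them at 20 or more in each library. The sum of 7 genes of 2-cell-like cells was 514 in NOD1 and 617 in NOD5 and lay between 47.9 and 52.5 in the other libraries. For 8 trophoblast markers it was 5056 in NOD1 and 3219 in NOD5 and lay between 970 and 1167 in the others. For 7 leukocyte markers it ran from 71.0 in NZB to 944 in B6. For 9 primitive endoderm markers it ran from 943 in NOD5 to 4399 in NZB. In bulk RNA, fewer cells of a type and less RNA per cell cannot be told apart.

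The dosage of a gene is its log2 normalised read count (with 1 added) in a library minus the median over the other 4 libraries, and the dosage of a chromosome is the median over its genes after recentring on the genes of the other autosomes. Chromosome 6 stood above the rest of the genome in v6.5 and B6 and below it in both NOD libraries. Its median dosage was 0.41 in v6.5, 0.25 in B6, -0.13 in NZB, -0.30 in NOD1 and -0.32 in NOD5 on the log2 scale. The medians of the other 18 autosomes ran from -0.09 to 0.21 in v6.5, from -0.51 to 0.17 in B6, from -0.16 to 0.10 in NZB, from -0.23 to 0.25 in NOD1 and from -0.11 to 0.26 in NOD5. Chromosome 6 was therefore the highest autosome in v6.5 and in B6 and the lowest in NOD1 and NOD5, and in NZB it was the second lowest, above chromosome 8. Chromosomes 3, 9, 10, 13, 14 and 18 had the same signs in all 5 libraries at smaller sizes. Of these, 13 and 18 were the highest in v6.5 and B6. They were at 0.21 and 0.15 in v6.5, 0.17 and 0.14 in B6, -0.10 and -0.03 in NZB, -0.23 and -0.18 in NOD1 and -0.11 and -0.06 in NOD5. Of the members 71.5% were above 0 in v6.5, 63.2% in B6, 39.6% in NZB, 36.1% in NOD1 and 34.2% in NOD5, against 50% of the genes of the other autosomes in each. The 5 medians share their references, so they are not 5 independent measurements, and an excess in 1 library lowers the others in some part. No test was made, since each line is a single library.

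**Figure D1:**
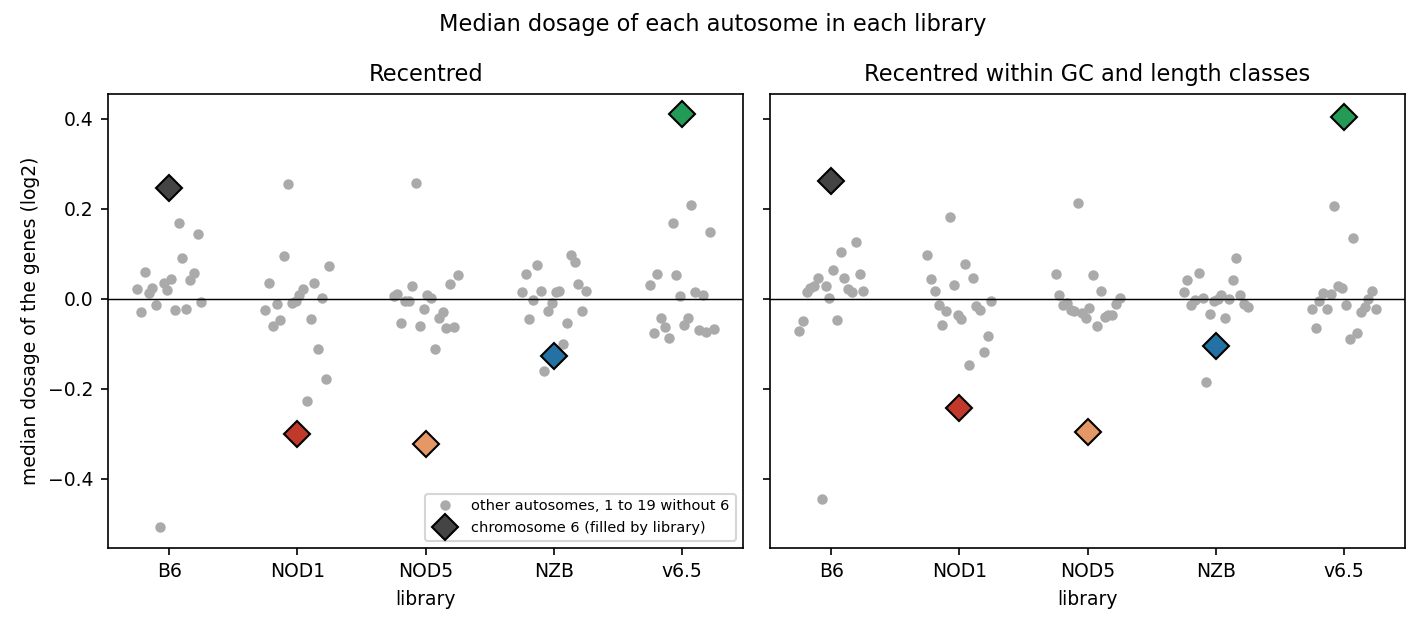
Median dosage (log2, vertical axis) of each autosome in each of the 5 libraries (horizontal axis), recentred on the other autosomes on the left and within classes of GC content and length on the right; diamonds are chromosome 6 and grey points the other 18 autosomes. In both panels chromosome 6 is the highest point in B6 and v6.5 and the lowest in NOD1 and NOD5.

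The libraries were also set against each other in pairs. The members' median difference was 0.57 between v6.5 and NOD5, 0.52 between v6.5 and NOD1, 0.43 between v6.5 and NZB, 0.40 between B6 and NOD1, 0.39 between B6 and NOD5 and 0.26 between B6 and NZB. NZB stood 0.18 above NOD1 and 0.17 above NOD5. The closest pairs were v6.5 and B6, at 0.10, and NOD1 and NOD5, at 0.02. In folds, the median member was 1.48 times as high in v6.5 as in NOD5 and 1.32 times as high in B6 as in NOD1. As a scale, 3 copies in place of 2 with RNA in proportion would move a median by 0.58. Copy number itself was not measured, and its part in these differences was not tested. In the 3 pairs of v6.5 with NOD1, NOD5 and NZB chromosome 6 had the largest median difference of the 19 autosomes. In the pairs of B6 it was the second largest by size, after chromosome 8, which was lower in B6.

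The spread of single members was wide beside these medians. Between v6.5 and NOD5 the middle 50% of members lay from -0.19 to 1.18, and 70.6% of members were higher in v6.5. Between NOD1 and NOD5 the middle 50% lay from -0.40 to 0.47, and the median size of a member's difference was 0.42, against 0.44 for genes of the other autosomes. Between v6.5 and B6 that median size was 0.35, against 0.31. The shift of the median was seen at every level of expression. For members with a mean deposited value of 20 to 100 the v6.5 median was 0.31 above genes of the other autosomes at the same level, and it was 0.40, 0.48 and 0.45 for 100 to 500, 500 to 2000 and over 2000. In NOD5 the same 4 classes gave -0.30, -0.19, -0.37 and -0.37.

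The dosage of genes changed with transcript base composition in directions that differed between libraries. This was compared with the dosage of the chromosome because GC content can move with a chromosome. Whether the trend came from the recovery of transcripts or from expression was not tested. On the other autosomes the median dosage fell across 10 classes of transcript GC content from 0.25 to -0.28 in B6 and from 0.27 to -0.32 in v6.5, and it rose from -0.31 to 0.38 in NOD1, from -0.16 to 0.15 in NOD5 and from -0.10 to 0.13 in NZB. Across 4 classes of exon length it rose from -0.20 to 0.23 in B6 and fell from 0.20 to -0.18 in NOD1. GC content was known for 568 members, 99.5% of them, with a median of 49.7% against 50.8% for the other autosomes, and their median length was 3025 bases against 2911. The members were also above the other autosomes in each of the 10 GC classes in B6 and v6.5, and below them in each of the 10 in NOD1, NOD5 and NZB. Within classes of both GC content and length, the median dosage of chromosome 6 was 0.40 in v6.5, 0.26 in B6, -0.11 in NZB, -0.24 in NOD1 and -0.30 in NOD5, and the order of the libraries was the same. Chromosome 13 was then at 0.13 in v6.5 and 0.10 in B6, and chromosome 18 at 0.02 and 0.05. Over the 7 alternative ways of scaling and choosing genes the median stayed between 0.40 and 0.46 in v6.5 and between 0.23 and 0.28 in B6.

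**Figure D2:**
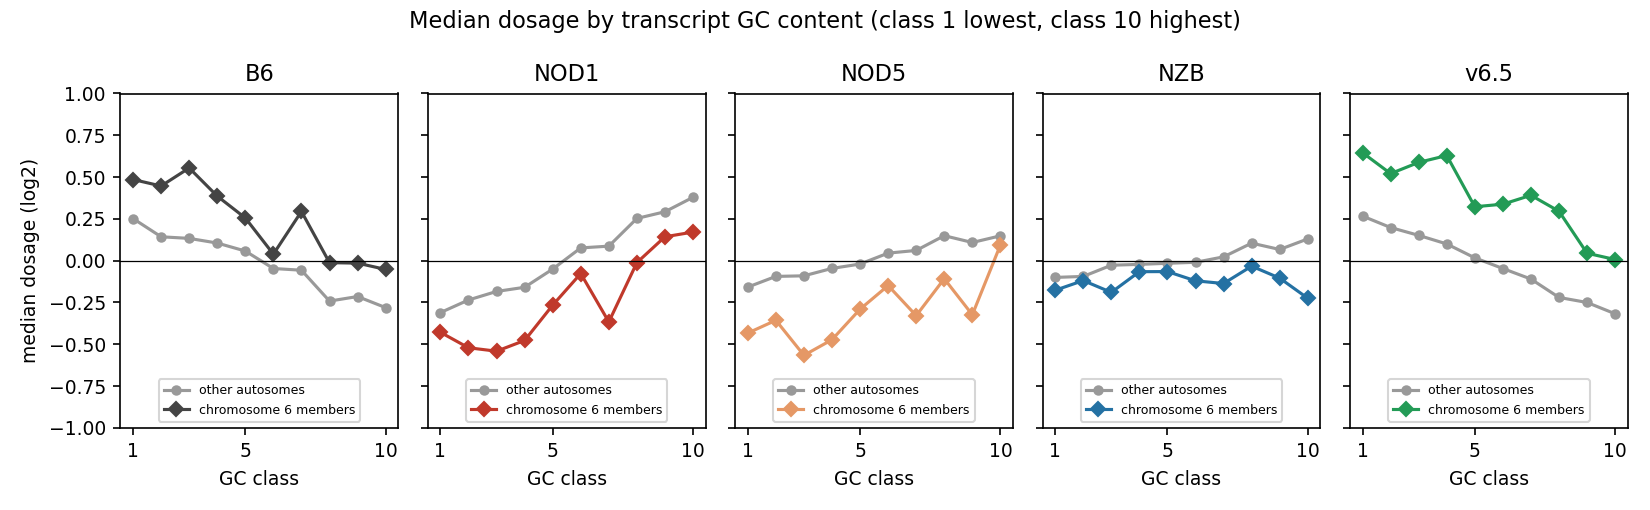
Median dosage (log2, vertical axis) by class of transcript GC content (horizontal axis, class 1 the lowest) in each library; coloured diamonds are the chromosome 6 members and grey points the genes of the other autosomes. The members lie above the grey points in every class in B6 and v6.5 and below them in every class in NOD1, NOD5 and NZB.

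Member by member, B6 and v6.5 stood above the other 3 libraries more often on chromosome 6 than elsewhere, and below them less often. In 229 members (40.1%) B6 and v6.5 were both above NOD1, NOD5 and NZB, against 23% of genes of the other autosomes. In 66 members (11.6%) both were below all 3, against 24.1%. Within GC and length classes the counts were 232 (40.8%, against 23.1%) and 57 (10.04%, against 22.5%). Leaving out the B6 library, v6.5 was above NOD1, NOD5 and NZB in 303 members (53.1%, against 30.6%) and below them in 97 (17.0%, against 31.9%). Leaving out v6.5, B6 was above them in 262 (45.9%, against 31.8%) and below in 115 (20.1%, against 33.0%). The 229 members had a median GC content of 47.5% and the 66 a median of 52.6%. Their promoters held medians of 20 and 18 CG dinucleotides.

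Along the chromosome the members were divided into 23 windows of 25 adjacent genes, the last of 21. The excess in v6.5 and B6 and the deficit in the NOD libraries ran over most of the chromosome and were not confined to 1 region. v6.5 was above 0 in 20 windows, from -0.14 to 0.91, and B6 in 21, from -0.33 to 0.71. NOD1 was below 0 in 19, NOD5 in 21 and NZB in 18. Among 439 windows of the same size on the other autosomes, 51.7% were above 0 in v6.5 and 53.5% in B6. v6.5 was above the 95th percentile of those windows in 14 of 23 and B6 in 7, while NOD5 was below the 5th percentile in 11, NOD1 in 8 and NZB in 4. The difference from the NOD mean was above its own 95th percentile in 17 windows for v6.5 and in 12 for B6. With windows of 50 members, B6 and v6.5 were above 0 in 12 of 12.

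**Figure D3:**
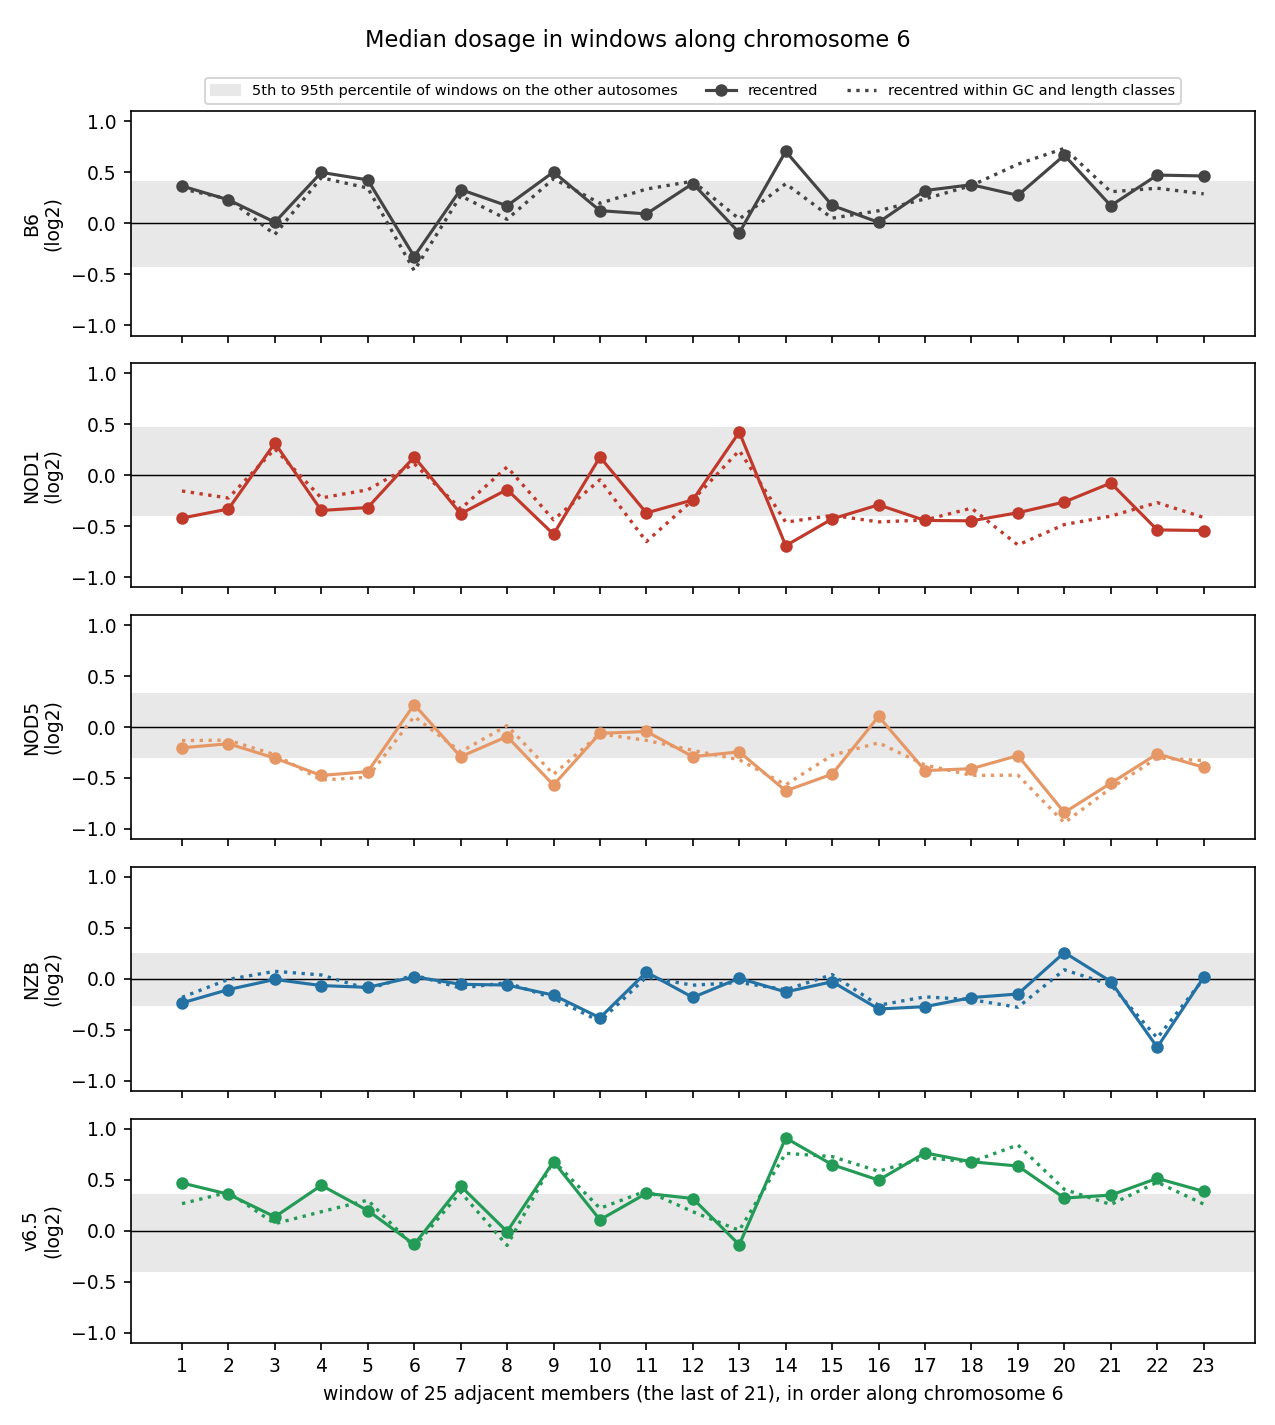
Median dosage (log2, vertical axis) in 23 windows in order along chromosome 6 (horizontal axis), 1 panel for each library; solid lines are recentred on the other autosomes, dotted lines are also taken within GC and length classes, and the grey band is the 5th to 95th percentile of windows on the other autosomes. The v6.5 line leaves the band upward in 14 windows, all of windows 14 to 19 among them, and the NOD lines lie below 0 in 19 and 21 windows.

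The highest window was the 14th, from Tmem43 to Eif4e3 (91.4 to 99.6 Mb, mm9), where the median was 0.91 in v6.5, 0.71 in B6, -0.13 in NZB, -0.69 in NOD1 and -0.63 in NOD5. It holds Mitf, Foxp1 and Frmd4b. In 16 of its 25 members B6 and v6.5 were above the other 3 libraries, against 40.1% of all members and 23% on other autosomes. Within GC and length classes this window was at 0.76 in v6.5 and 0.39 in B6 and was no longer the highest. The highest was then the 19th in v6.5, at 0.84, and the 20th in B6, at 0.74. From the 14th to the 19th window (91.4 to 125.1 Mb, 150 members) the median dosage in v6.5 was 0.66, against 0.27 in the 325 members before it and 0.39 in the 96 after it. The bounds of this stretch were chosen after its values were seen. Within it v6.5 was 0.31 above B6 at the median and higher in 70.7% of members, whereas in the members before it the difference was 0.06 and in those after it -0.04. In B6 the medians were 0.17, 0.23 and 0.50 from the first stretch to the last, so its highest stretch was not that of v6.5. The values within GC and length classes were 0.69 in v6.5 for the middle stretch, 0.24 before it and 0.35 after it.

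Few windows went against the rest. In the sixth, from Zfp786 to Osbpl3 (47.8 to 50.4 Mb), which holds the zinc finger cluster, the median was -0.33 in B6 and -0.13 in v6.5 and lay above 0 in NOD1 (0.18), NOD5 (0.22) and NZB (0.02). In the 13th, from H1fx to Chchd4, NOD1 was at 0.42 while NOD5 was at -0.24, and B6 and v6.5 were at -0.09 and -0.14. This window had the highest median GC content of the 23, at 56.1%, and within GC and length classes NOD1 was at 0.24 and v6.5 at 0.00 there. NOD1 was also above 0 in the third window (0.31) and the tenth (0.18), whereas NOD5 was at -0.31 and -0.06.

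For single genes the main comparison was the NOD pair against B6, fitted with limma on log2 values over 14325 genes, in which the lone B6 library was assumed to vary like the NOD lines. Of 570 members tested, 53 were lower in NOD (9.30%) and 14 higher (2.46%) at an adjusted p of 0.05, against 3.06% lower and 3.16% higher among all genes tested and 3.16% and 3.27% on the other autosomes at the same level. The members' median log2 difference was -0.41 and that of all genes 0.02. Over 2-fold below B6 in both NOD libraries were 122 members (21.4%), against 8.92% on the other autosomes, and 37 (6.48%) were over 2-fold above it in both, against 10.1%. The counts of calls depended on the fit: edgeR on the recovered reads called 17 higher and 72 lower, without TMM factors 56 were higher and 18 lower, where the median of all genes itself moved to 0.78, and with no filter on low genes none passed. The members' own median without TMM factors was 0.37.

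The 10 largest decreases in NOD were in genes of varied roles. Ccnd2, a cyclin of the G1 phase, had a normalised read count of 366 in B6, 4.57 in NOD1, 14.05 in NOD5, 119 in NZB and 50.02 in v6.5, a log2 difference of -5.32 ± 0.99 (SE), limma adjusted p = 0.0011. Rerg, a small RAS-like GTPase, was at 436 in B6, 10.7 in NOD1, 16.5 in NOD5, 50.4 in NZB and 487 in v6.5, and its log2 difference was -4.93 ± 0.88 (SE), limma adjusted p = 0.00076. For Rerg B6 and v6.5 were close to each other and far above the other 3 libraries, whereas for Ccnd2 only B6 was high. Cav1, the coat protein of caveolae, had 72 reads in B6, 0 in NOD1, 1 in NOD5, 54 in NZB and 6 in v6.5, so that B6 stood 276 times above the NOD pair with a 95% counting interval from 47.9 to 11036. With a mean deposited value of 28.5, Cav1 reached the level through B6 and NZB. Its height there was fixed by the choice of members, so the ratio and its adjusted p are a description. Emp1, a membrane protein of epithelia, was at 367 in B6, 74.7 in NOD1, 19.4 in NOD5, 173 in NZB and 527 in v6.5. The transcription repressor gene Etv6 was at 1020 in B6, 80.8 in NOD1, 233 in NOD5, 364 in NZB and 773 in v6.5, with both NOD libraries below every other. Rassf4, of the RAS-association family, was at 407 in B6, 54.9 in NOD1, 31.01 in NOD5, 66.9 in NZB and 214 in v6.5. Prmt8, an arginine methyltransferase of neurons, was at 146 in B6, 4.57 in NOD1, 12.6 in NOD5, 61.8 in NZB and 31.1 in v6.5, and Cttnbp2, a cortactin-binding protein of dendritic spines, at 219.5 in B6, 21.3 in NOD1, 42.6 in NOD5, 72.05 in NZB and 216 in v6.5. Both NOD libraries lay below the other 3 for each of these genes. Their adjusted p-values by limma were 0.0072 (Cav1), 0.014 (Emp1), 0.0029 (Etv6), 0.0067 (Rassf4), 0.019 (Prmt8) and 0.038 (Cttnbp2). The noncoding transcript 1700023L04Rik, with 5 and 9 reads in the NOD libraries and 63 in B6, and Col1a2, taken up with the matrix genes, complete the 10 largest decreases.

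Of the 14 increases in NOD, 9 were in members with a mean deposited value of at least 100. Aass, the first enzyme of lysine breakdown, was at 12.7 in B6, 492 in NOD1, 301 in NOD5, 311 in NZB and 8.12 in v6.5, a log2 difference of 4.80 ± 0.67 (SE), limma adjusted p = 3.9e-05. NZB thus lay with the NOD lines for Aass, and B6 and v6.5 held 9 and 6 reads. Mgll, the lipase that degrades the endocannabinoid 2-AG, was at 21.1 in B6, 372 in NOD1, 279.6 in NOD5, 5.15 in NZB and 17.6 in v6.5, a log2 difference of 3.86 ± 0.65 (SE), limma adjusted p = 0.0004, and NZB was the lowest there. Scarna10, a small Cajal body RNA that guides RNA modification, was at 117 in B6, 1297 in NOD1, 811 in NOD5, 371 in NZB and 120.3 in v6.5 (3.12 ± 0.48 (SE), limma adjusted p = 0.00014). It lies inside Ncapd2 on the same strand, so reads of the pair may be shared, and small RNAs are recovered poorly by poly-A selection. Stra8, which starts meiosis in germ cells, was at 67.5 in B6, 978 in NOD1, 221 in NOD5, 26.8 in NZB and 116 in v6.5, and the NOD libraries differed by over 4-fold between themselves. Cntn3, a neuronal adhesion molecule, was at 8.44 in B6, 104 in NOD1, 84.3 in NOD5, 38.1 in NZB and 2.71 in v6.5, and Plbd1, a phospholipase-like protein, at 22.5 in B6, 151 in NOD1, 253 in NOD5, 42.2 in NZB and 9.47 in v6.5. Gm8994 was at 178 and 174 in the NOD libraries and between 6.76 and 13.4 in the others. Mgll, Cntn3 and Gm8994 became members through NOD, so their increases and adjusted p-values here are a description. Ccser1 was at 154 and 110.0 in NOD and between 15.4 and 35.2 elsewhere. Clec2f, of the lectin family of the natural killer complex, had 113 and 87 reads in NOD, 54 in NZB and, at the low end, 1 in B6 against 2 in v6.5, a ratio of 52.2 over B6 with a counting interval from 9.27 to 2074. Rprl1, an RNase P RNA-like gene, had 50 and 46 reads in NOD and 0 in B6. Taking 3 reads over the B6 library as the floor, it was 8.36-fold higher, and its 95% counting interval began at 6.67-fold. Its log2 difference was 5.29 from B6 alone and 3.32 with v6.5 joined to B6, where it did not pass. Intervals and floors cover counting error only.

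**Figure D4:**
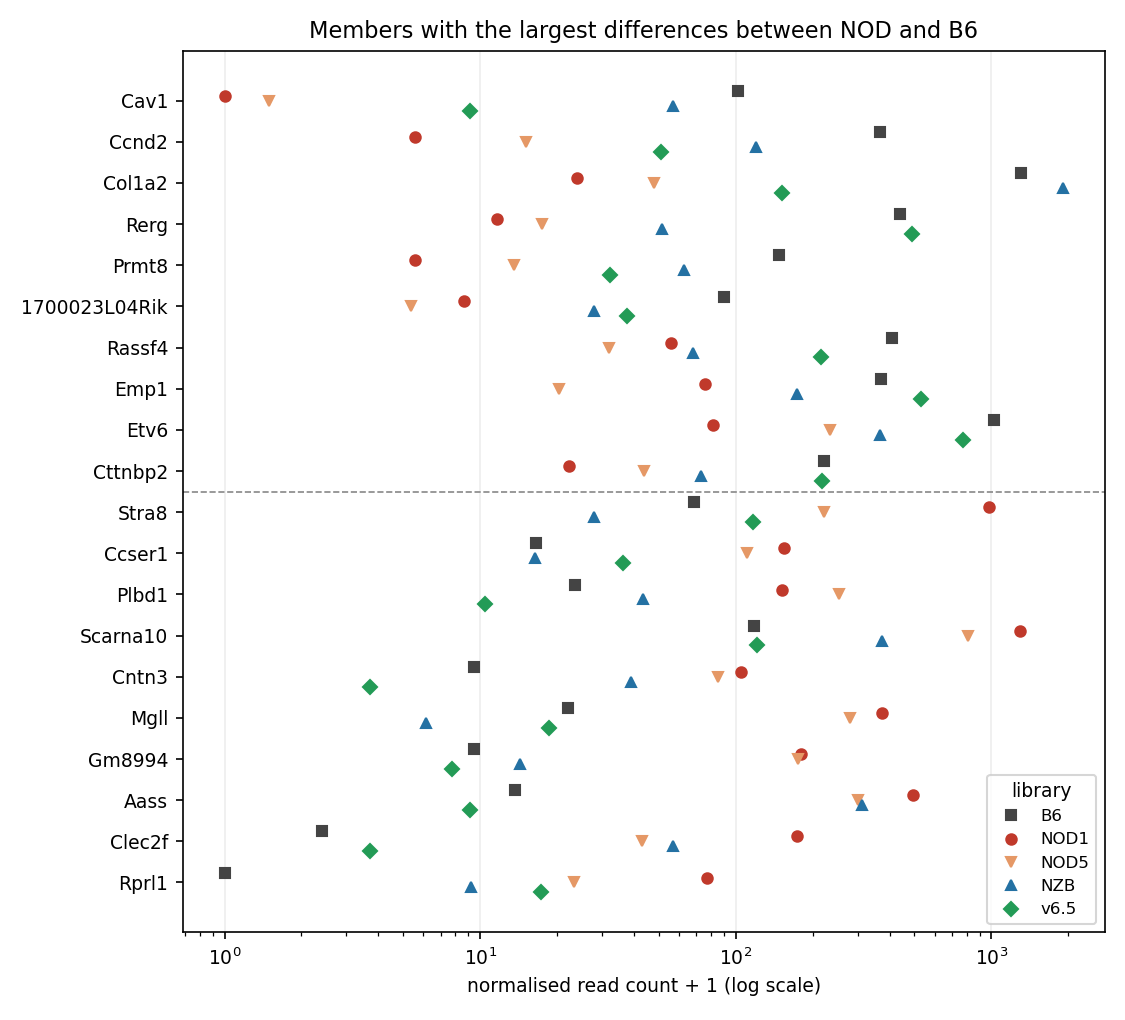
Normalised read count plus 1 (horizontal axis, log scale) of the 10 members with the largest decrease and the 10 with the largest increase in NOD against B6 (vertical axis), 1 symbol for each of the 5 libraries. Above the dashed line the NOD symbols lie left of all others, and below it they lie right of B6 and v6.5, while NZB lies with B6 for some genes (Stra8, Ccser1) and with NOD5 for Aass.

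The members were also read by role, and the share of each list called in NOD against B6 stands against 3.06% lower and 3.16% higher of all genes and 9.30% and 2.46% of the members. The fits of single genes were not adjusted for GC content or length, in which B6 and NOD1 differed. Genes of the same roles on other autosomes were not counted, so whether a share belongs to the role or to the chromosome was not tested. Chromatin and transcription regulators were the longest list. Of its 37 members, 12 (32.4%) were lower in NOD than in B6 by limma and 0 higher (1 higher and 18 lower at an unadjusted p under 0.05, 1 higher and 14 lower by edgeR), with a median log2 difference of -0.999 against 0.02 for all genes. Ezh2, the methyltransferase of Polycomb repressive complex 2, was at 3694 in B6, 1224 in NOD1, 1543 in NOD5, 2038 in NZB and 3702 in v6.5, a log2 difference of -1.43 ± 0.44 (SE), limma adjusted p = 0.048. Phc1, of Polycomb repressive complex 1, was at 4586 in B6, 847 in NOD1, 1553 in NOD5, 1886 in NZB and 3537 in v6.5 (-2.00 ± 0.46 (SE), limma adjusted p = 0.0075), and Rybp, a subunit of variant forms of that complex, at 2309 in B6, 396 in NOD1, 624 in NOD5, 256 in NZB and 2238 in v6.5 (-2.22 ± 0.45 (SE), limma adjusted p = 0.0029). For all 3 Polycomb genes B6 and v6.5 were both above the remaining libraries. Phc1 and Rybp also passed by DESeq2 and in the fit of all 5 libraries, whereas Ezh2 passed in neither. The others that fell were Tcf7l1, a repressor of Wnt targets in pluripotent cells (607 in B6, 59.4 in NOD1, 196 in NOD5, 110.1 in NZB and 315 in v6.5), Mitf, Foxp1, Foxm1, Etv6, Bhlhe40, Atf7ip, Ubn2 and the glycosylase gene Mbd4. Mitf, a helix-loop-helix factor of pigment cells, was at 1002 in B6, 137 in NOD1, 394 in NOD5, 952 in NZB and 1487 in v6.5, so that NZB stood with B6 and the NOD libraries differed 2.86-fold between themselves. Neither Mitf nor Mbd4 passed by DESeq2. Bhlhe40, a circadian repressor, was highest in NZB, at 1640, against 837 in B6, 692 in v6.5 and 210.3 and 213 in NOD. Not passing the test were Chd4, the ATPase of the NuRD complex (10048 in B6, 4791 in NOD1, 5931 in NOD5, 6794 in NZB and 9762 in v6.5), and Tet3, a methylcytosine oxidase, which lay between 175 and 249 in all libraries. In 23 of the 37 (62.2%), B6 and v6.5 were both above the other libraries, against 40.1% of the members and 23% on other autosomes. In 2 (5.41%) both were below, against 11.6% of the members and 24.1% on other autosomes.

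Genes of DNA replication, repair and the cell cycle followed the same direction. Of 18 members, 5 (27.8%) were lower in NOD than in B6 and 0 higher by limma (0 higher and 8 lower at an unadjusted p under 0.05, and 0 and 5 by edgeR), with a median of -0.95. Mad2l1, of the spindle checkpoint, was at 3508 in B6, 782 in NOD1, 833 in NOD5, 1122 in NZB and 4371 in v6.5, a log2 difference of -2.12 ± 0.43 (SE), limma adjusted p = 0.0028. Cdca3, which promotes entry into mitosis, was at 2224 in B6, 449.6 in NOD1, 434 in NOD5, 1241 in NZB and 2880 in v6.5 (-2.34 ± 0.44 (SE), limma adjusted p = 0.0014). Ncapd2, a condensin subunit, and Shfm1, a small partner of BRCA2, also fell, by 1.57 and 1.56 on the log2 scale, as did Ccnd2. For Mad2l1, Cdca3 and Shfm1 v6.5 was the highest library. The replicative helicase gene Mcm2 was at 7825 in B6, 3825 in NOD1, 5809 in NOD5, 4895 in NZB and 8674 in v6.5 and Rad52, of homologous recombination, at 209.7 in B6, 192 in NOD1, 148 in NOD5, 115 in NZB and 319 in v6.5, and neither passed the test. In 14 of the 18 (77.8%), B6 and v6.5 were both above the other libraries, against 40.1% of the members and 23% on other autosomes. In 0 were both below, against 11.6% of the members and 24.1% on other autosomes.

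Among 23 genes of glucose, amino acid and one-carbon metabolism, 3 (13.04%) were lower in NOD and 1 higher (5 and 3 at an unadjusted p under 0.05, 3 and 1 by edgeR). Their median of -0.42 was close to the -0.41 of all members. Slc6a6, given below, was called by limma and edgeR but not by DESeq2. Tpi1, triosephosphate isomerase of glycolysis, was at 6167 in B6, 882 in NOD1, 1070 in NOD5, 5932 in NZB and 10957 in v6.5, a log2 difference of -2.67 ± 0.44 (SE), limma adjusted p = 0.00027. Hk2, the hexokinase that starts glycolysis, was at 7812 in B6, 1753 in NOD1, 1856 in NOD5, 6720 in NZB and 8463 in v6.5 (-2.12 ± 0.45 (SE), limma adjusted p = 0.0041). For both enzymes NZB lay with B6, and the NOD libraries were the only low ones. Slc6a6, the taurine transporter, was at 6136 in B6, 1454 in NOD1, 2919 in NOD5, 3646 in NZB and 5553 in v6.5 (-1.58 ± 0.48 (SE), limma adjusted p = 0.047). Mthfd2, a mitochondrial folate enzyme, was the member that rose, at 550.2 in B6, 1318 in NOD1, 2654 in NOD5, 954 in NZB and 1335 in v6.5 (1.76 ± 0.46 (SE), limma adjusted p = 0.02), and v6.5 lay with NOD1 there. Gapdh was low for a glycolytic enzyme, at 108 in B6, 38.1 in NOD1, 28.1 in NOD5, 39.1 in NZB and 60.8 in v6.5, and since it has many near-identical copies its counts are uncertain.

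The protein folding and secretion genes moved least. Of 21 members 0 passed in either direction by limma (0 higher and 2 lower at an unadjusted p under 0.05, 0 and 1 by edgeR), and their median was -0.14. Fkbp4, a co-chaperone of HSP90, was at 9373 in B6, 9817 in NOD1, 9273 in NOD5, 8012 in NZB and 11571 in v6.5. In receptor and developmental signalling, 2 of 23 members were lower in NOD and 0 higher (5 lower and 0 higher at an unadjusted p under 0.05, 2 and 0 by edgeR), with a median of -0.48. Hipk2, a nuclear kinase, was at 326 in B6, 74.7 in NOD1, 62.5 in NOD5, 63.8 in NZB and 233 in v6.5 (-2.24 ± 0.67 (SE), limma adjusted p = 0.044), with B6 and v6.5 above the other 3 libraries. Braf, a kinase of the MAP kinase pathway, did not pass, at 1240 in B6, 782 in NOD1, 516 in NOD5, 1045 in NZB and 1291 in v6.5.

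The matrix, contractile and mesenchymal list had the lowest median, -1.32, with 5 of 16 members (31.2%) lower in NOD and 1 higher (7 and 1 at an unadjusted p under 0.05, 6 and 1 by edgeR). Col1a2, a chain of type I collagen, was at 1302 in B6, 22.9 in NOD1, 47 in NOD5, 1901 in NZB and 150.1 in v6.5, a log2 difference of -5.27 ± 0.70 (SE), limma adjusted p = 2.2e-05. Fbln2, an elastic fibre protein, was at 733 in B6, 160.0 in NOD1, 103 in NOD5, 1654 in NZB and 41.9 in v6.5 (-2.51 ± 0.56 (SE), limma adjusted p = 0.0067). v6.5 was far below B6 and NZB for both genes, and for Fbln2 it was below the NOD libraries too. Cald1, which binds actin, was at 2684 in B6, 844 in NOD1, 561 in NOD5, 591 in NZB and 1951 in v6.5 (-1.97 ± 0.44 (SE), limma adjusted p = 0.0069), and Cav1 and Emp1 also fell. Tspan9, a tetraspanin, rose from 273 in B6 to 1074 and 789 in NOD (1.74 ± 0.46 (SE), limma adjusted p = 0.02). The summed fibroblast markers given above, which include Col1a2 itself, were higher in B6 and NZB than in the other libraries, as were Col1a2 and Fbln2. The orders matched only in part, since the sum was highest in B6 and both genes in NZB. In v6.5 the sum was above both NOD libraries, unlike Fbln2. The part of the fibroblast markers in this list was not tested.

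The HOXA list had 3 members, of 12 genes in the table. Hoxa9 was at 22.5 in B6, 35.1 in NOD1, 17.4 in NOD5, 229.5 in NZB and 22.99 in v6.5 and Hoxa10 at 18.3 in B6, 22.9 in NOD1, 21.8 in NOD5, 125 in NZB and 5.41 in v6.5, with NZB the highest for both. Without NZB the mean deposited value of Hoxa10 was 16.6, under the level, so it became a member through NZB and its high value there is no finding. No member of the list passed by limma in any comparison. At an unadjusted p under 0.05, 0 differed for NOD against B6, 2 were higher in NZB than in B6 and 2 were lower in NOD than in NZB, of which edgeR called 0, 0 and 1. The zinc finger cluster near Ezh2, like the HOXA list with a median of 0.27, ran against the other lists. Of its 9 members, 1 was higher in NOD than in B6 and 0 lower, with a median of 0.45. At an unadjusted limma p under 0.05 the counts were 2 and 0, and by edgeR 1 and 0. In 5 of the 9 (55.6%), B6 and v6.5 were both below the other libraries, against 11.6% of the members and 24.1% on other autosomes. Repin1, which binds replication origins, was the member that rose, at 73.2 in B6, 514 in NOD1, 306 in NOD5, 187 in NZB and 114 in v6.5 (2.41 ± 0.57 (SE), limma adjusted p = 0.0093). Zfp282 did not pass, at 153 in B6, 201 in NOD1, 302 in NOD5, 245 in NZB and 341 in v6.5, and there v6.5 was the highest.

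Of 16 immune and antiviral genes that reached the level, 0 passed in NOD against B6 by limma (0 higher and 2 lower at an unadjusted p under 0.05, 0 and 2 by edgeR), with a median of -0.28. Samd9l, an interferon-induced restriction factor, was at 287 in B6, 16.8 in NOD1, 134 in NOD5, 8.24 in NZB and 209.6 in v6.5, a log2 difference of -2.56 ± 0.88 (SE), limma adjusted p = 0.082. Only 16 of the 35 listed genes in the table were members, so most of the listed immune genes were not members.

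Against v6.5 in place of B6, in a fit of all 5 libraries, 17 members were lower in NOD and 7 higher of 571 tested, which makes 2.98% and 1.23% of the members. Of 14280 genes tested 0.672% and 0.98% were called, and on the other autosomes at the same level 0.643% and 0.974%. edgeR called 69 lower and 13 higher. Tpi1 was lower by limma at -3.49 ± 0.43 (SE), limma adjusted p = 0.0044, Rerg at -5.09 ± 0.75 (SE), limma adjusted p = 0.0076 and Emp1 at -3.75 ± 0.78 (SE), limma adjusted p = 0.037. Among the increases were Aass (5.40 ± 0.72 (SE), limma adjusted p = 0.0051), Cntn3 (4.67 ± 0.94 (SE), limma adjusted p = 0.033), Gm8994 (4.51 ± 0.90 (SE), limma adjusted p = 0.033) and Plbd1 (4.23 ± 0.82 (SE), limma adjusted p = 0.031). Cntn4, a neuronal adhesion gene of the same family as Cntn3, became a member through v6.5 alone, so its standing there was fixed by the choice of members and its values are a description. It was 1 of 21 members whose mean over the other 4 libraries, without the highest, was under the level. It had 1112 reads in v6.5 and 1, 0, 2 and 3 in B6, NOD1, NOD5 and NZB, a ratio of 487 over NZB with a counting interval from 166 to 2365, and it was the only member that failed the filter in the fit of NOD and B6. Both fits share the NOD libraries, so they are not independent of each other. Since Cntn3 and Gm8994 became members through NOD, their increases are a description.

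NOD was also compared with NZB in the fit of all 5 libraries. Of 571 members 5 were lower in NOD and 4 higher (0.876% and 0.701%), against 0.343% and 0.273% of all genes and 0.366% and 0.286% on the other autosomes at the same level, and edgeR called 21 and 9. Lower were Col1a2 (-5.81 ± 0.60 (SE), limma adjusted p = 0.0014), Fbln2 (-3.68 ± 0.54 (SE), limma adjusted p = 0.0096), Bhlhe40 (-2.95 ± 0.43 (SE), limma adjusted p = 0.0096), Tpi1 (-2.61 ± 0.43 (SE), limma adjusted p = 0.021) and Ccdc136. Higher were Mgll (5.72 ± 0.82 (SE), limma adjusted p = 0.0092), the histone gene Hist4h4 at 94.3 in B6, 351 in NOD1, 295 in NOD5, 18.5 in NZB and 158 in v6.5, the bicarbonate transporter gene Slc4a5 at 349 in B6, 575 in NOD1, 972 in NOD5, 61.8 in NZB and 700.4 in v6.5, and 1110019D14Rik. The last, an uncharacterised transcript, had 166 reads in B6, 32 in NOD1, 140 in NOD5, 111 in v6.5 and 1 in NZB, so that NZB alone was low. Since Mgll became a member through NOD, its increase is a description.

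NZB against B6 gave 2 lower members and 0 higher, against 0.084% and 0.056% of all genes and 0.0625% and 0.0268% on the other autosomes at the same level, with 46 lower and 18 higher at an unadjusted p under 0.05, 14 and 2 by edgeR and 10 and 1 by DESeq2. The lower ones were Rybp (-3.17 ± 0.51 (SE), limma adjusted p = 0.047) and 1110019D14Rik. v6.5 against B6 gave 0 members in either direction by limma, against 0% lower and 0.007% higher of all genes and 0% and 0.00893% on the other autosomes at the same level, with 7 lower and 5 higher at an unadjusted p under 0.05 and 2 lower and 1 higher by edgeR and by DESeq2. The median SE of a member's log2 difference in this comparison was 0.61, so small differences in single genes were not detectable.

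Of the 5 members with the highest mean values, Fkbp4 among them, only Serbp1 had both B6 and v6.5 well above the rest. Slc2a3, the high-affinity glucose transporter, was at 36440 in B6, 23909 in NOD1, 31460 in NOD5, 45867 in NZB and 37894 in v6.5. Asns, asparagine synthetase, was at 14028 in B6, 14279 in NOD1, 24507 in NOD5, 12683 in NZB and 16613 in v6.5, and Cnbp, a zinc finger protein that binds nucleic acids, lay between 7005 and 9096. Serbp1, an mRNA-binding protein of ribosomes whose promoter is printed above, was at 42859 in B6, 13420 in NOD1, 15472 in NOD5, 14210 in NZB and 40448 in v6.5. B6 and v6.5 did not overlap the other libraries, and yet the limma difference of NOD from B6 did not pass (-1.58 ± 0.69 (SE), limma adjusted p = 0.19). Wnk1, a kinase that controls ion transport, had the same order at 16610 in B6, 3377 in NOD1, 2625 in NOD5, 4176 in NZB and 15081 in v6.5 and passed against B6 (-2.49 ± 0.49 (SE), limma adjusted p = 0.0022) and against v6.5 (-2.34 ± 0.49 (SE), limma adjusted p = 0.038).

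Adjacent members that were all over 2-fold below B6 in both NOD libraries formed 7 runs of at least 3, and those above it formed 0. The 11194 genes of the other autosomes held 19 runs below and 33 above, counted in the same way. Of these, chromosome 1 held 5 below and 2 above in 672 genes. Chromosome 8 held 0 below and 9 above in 673, so numbers of this size were not particular to chromosome 6. Runs also become more frequent where more single genes are lower, and the part of this in the count was not tested. The runs were Akr1b10, Bpgm and Cald1 in the fourth window, then Immt, Ptcd3 and Polr1a in the ninth, then Lsm3, Slc6a6 and Ccdc174 with Arl6ip5, Frmd4b, Mitf and Foxp1 in the 14th, then Ybx3, 2700089E24Rik, Etv6, Bcl2l14 and Lrp6 with Apold1, Ddx47 and Gprc5a in the 21st, and last Cmas, St8sia1 and C2cd5 in the 22nd. The longest, of 5 members from Ybx3 to Lrp6, had a median dosage of 1.48 in B6, 1.31 in v6.5, -0.45 in NZB, -1.90 in NOD1 and -0.89 in NOD5. Immt, which shapes the cristae of mitochondria, was at 6734 in B6, 2327 in NOD1, 3290 in NOD5, 3400 in NZB and 6875 in v6.5, Ptcd3 of the mitochondrial ribosome at 2891 in B6, 1353 in NOD1, 1313 in NOD5, 2071 in NZB and 3060 in v6.5, and Polr1a, the large subunit of RNA polymerase I, at 3866 in B6, 1340 in NOD1, 1763 in NOD5, 2438 in NZB and 3555 in v6.5. All 3 had B6 and v6.5 well above NOD, and none passed the test alone (adjusted p by limma of 0.1, 0.13 and 0.07). In the run of the 14th window, Frmd4b (856 in B6, 117 in NOD1, 127 in NOD5, 565 in NZB and 502 in v6.5) and Foxp1 (660.0 in B6, 155 in NOD1, 127 in NOD5, 212 in NZB and 416 in v6.5) passed, as did Mitf.

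The NOD libraries themselves differed by over 2-fold in 95 members, with NOD1 higher in 51 (8.93%) and NOD5 in 44 (7.71%), against 10.2% and 7.09% of the other autosomes. Bhlhe41, a circadian repressor, was at 82.3 in NOD1 and 4.36 in NOD5, and Trh, the thyrotropin-releasing hormone gene, at 101 and 1168. Both genes were chosen after their values were seen.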

How the data were processed

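Stranded mRNA-Seq values of 5 ES cell libraries were analysed. Per the submitters' processing notes, base calls came from CASAVA 1.8.2 and reads were aligned with STAR 2.2.0c to mm9 and counted with HOMER. Each deposited signal value is a count of reads over RefSeq exons, which the authors rescaled to a common library size. The deposited table also gives an exon length (unit other) for each gene. Its fold changes, p-values and false discovery rates from the authors' own comparisons were not used. All values under 3000 were within 0.05 of a whole multiple of 1 read, so whole reads were recovered (100% of them) for edgeR 4.0.16 and DESeq2 1.42.0 as alternatives. The main test was limma 3.58.1 (R 4.3.3) on log2(value / TMM factor + 1), because rescaled values are not counts. Fold changes on this scale are understated for low genes. NOD against B6 was fitted on those 3 libraries and the other comparisons on all 5, with Benjamini-Hochberg adjustment over all genes tested and a threshold of 0.05. Lone libraries were assumed to vary like the NOD pair.

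Dosage was recentred on genes of the other autosomes chosen by the same level. Transcript GC content came from GENCODE M21 and promoters from RefSeq (GRCm38.p6), matched by gene identifier. Named genes were the 10 largest called increases and 10 largest decreases in NOD against B6 with the same direction in both NOD libraries, the 4 largest each way in the other comparisons, the 5 highest members, those beside the level, members of a run, and called members of a role list with 1 to 3 others. The members and lists were chosen with earlier results of these data known. Scripts were tested on simulated data. A few members are not reported here by name.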

Additional observations from a re-analysis of the deposited data

How the results depend on the processing

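The sign of the median dosage of chromosome 6 was the same in each of the 5 libraries under the 7 alternatives tried. In NOD1 it was -0.25 without TMM factors before recentring and -0.24 within GC and length classes, which were chosen after seeing the data. In NOD5 it was -0.24 without TMM factors, -0.27 with TMM factors but no recentring, -0.29 against the mean of the other libraries and -0.30 within GC and length classes. Leaving out either NOD library, the members' median difference was between -0.40 and -0.39 from B6, between -0.18 and -0.17 from NZB and between -0.57 and -0.52 from v6.5. The counts of called members moved more. For NOD against B6 the 67 calls became 0 with no filter, 37 in a fit of all 5 libraries and 118 with v6.5 joined to B6. Without TMM factors 56 were higher and 18 lower, and the median of all genes was shifted to 0.78 (0.89 for NZB against B6, 0.67 for v6.5 against B6 and -0.14 for NOD against NZB). Of the 67, 67 were also called in the same direction by edgeR, 57 by DESeq2 and 32 without TMM factors. For NZB against B6 the 2 calls became 16 by edgeR, 11 by DESeq2, 0 with no filter, 1 with a pseudocount of 8 and 1 at a member level of 100. For v6.5 against B6 the count of 0 became 3 by edgeR, 3 by DESeq2, 1 without TMM factors and 1 with a pseudocount of 8. For NOD against NZB the 9 calls became 30 by edgeR, 18 by DESeq2 and 1 with no filter, and for NOD against v6.5 the 24 became 82, 44 and 0. No paired analysis was made, since only replicate number 1 is shared between strains and no label states a pairing. With strains as groups, leaving out a NOD library leaves no residual degrees of freedom, so no count of calls is given for it. Depth of 7713133 reads in NOD1 limits members with few reads.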
